A study of Homo sapiens with 12 samples.

Results

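The genes described here are the human replication-dependent histone genes of the clusters HIST1, HIST2, HIST3 and HIST4. They were chosen as the rows whose symbol begins with HIST1H, HIST2H, HIST3H or HIST4H and that reached 0.5 RPKM in at least 3 of 12 RNA-Seq libraries. RPKM is a read count scaled to the length of the gene and to the reads of the library. This gave 47 of 73 such rows, in a table of 26441 genes. HIST1 on chromosome 6 held 37 of them, HIST2 on chromosome 1 held 6, HIST3 on chromosome 1 held 3 and HIST4 on chromosome 12 held 1. By histone class there were 5 genes for H1, 12 for H2A, 14 for H2B, 8 for H3 and 8 for H4. The members nearest the limit were HIST1H4J, HIST1H1D and HIST1H1B, for which the highest value reached in 3 libraries was 0.504, 0.533 and 0.615 RPKM, and the nearest rows outside it were HIST1H2BB at 0.416 and HIST1H2AJ at 0.339 RPKM.

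The study asked what CXCR7, an atypical chemokine receptor listed in the table as ACKR3, controls in prostate cancer cells that have become resistant to the androgen receptor blocker enzalutamide. C4-2B-EnzR cells in medium with 10 µM enzalutamide and LNCaP-EnzR cells in medium with 2 µM were infected with lentivirus carrying a short hairpin against CXCR7 (shCXCR7) or the empty control vector pLKO (LKO), and RNA was taken 4 days later, which gave 4 groups of 3 libraries. LNCaP is a prostate cancer line, C4-2B is a castration-resistant line derived from it, and both EnzR lines had become resistant through long exposure to the drug, so that all 12 libraries come from cells under enzalutamide. The methods name a pair of hairpins, and which one was used for these libraries is not given in the sources used here. Whether the replicates were grown separately is not stated either, and a p-value then reflects the scatter among libraries alone, part of which may be technical.

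Replication-dependent histone genes supply the core histones H2A, H2B, H3 and H4 and the linker histone H1 that package newly copied DNA, and their mRNA rises steeply in S phase and is destroyed when replication stops. Unlike other mRNAs, most of these transcripts carry no poly(A) tail and end instead just after a short stem-loop, which is bound by the stem-loop binding protein SLBP. NPAT, a protein switched on by cyclin E and CDK2, activates their promoters in nuclear bodies that sit at the clusters. Some of the genes can also make a polyadenylated form, which is known from cells that have stopped dividing. The library kit is named, but whether poly(A) selection or depletion of ribosomal RNA preceded it is not given, so how completely the stem-loop form was captured is unknown.

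The stem-loops are shown because they set these genes apart from other genes. They also mark the point past which a read comes from a longer form of the transcript. A read before that point can come from either form. A stem-loop of 16 bases was found after the stop codon in 45 of 47 members on GRCh38. HIST1H3E and the pseudogene HIST2H2BC had none that matched the pattern searched. The stem of all 8 H4 members read ggccct on its 5′ side and agggcc on its 3′ side. The other classes shared 2 main forms, carried by 26 and 8 members. The H2A genes HIST1H2AG, HIST1H2AK and HIST2H2AC each had a form of their own, that of HIST1H2AG with the 3′ side of the H4 stem. The loop is in capitals.
HIST1H2AE (chr6:26217417-26217432, + strand): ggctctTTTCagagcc
HIST1H2AG (chr6:27133515-27133530, + strand): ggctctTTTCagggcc
HIST1H2BJ (chr6:27132321-27132336, - strand): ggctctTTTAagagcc
HIST1H4I (chr6:27139654-27139669, + strand): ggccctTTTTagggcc
HIST2H2BE (chr1:149886188-149886203, - strand): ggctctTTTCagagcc

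The transcript model used for counting, read back from the RPKM steps, ran well past the stem-loop in 4 members, by 1728 bases in HIST2H2BE, 581 in HIST2H2BF, 379 in HIST1H2BD and 346 in HIST1H2BK. In these 4 genes the value can include reads from the part held only by a longer, polyadenylated form. In the other members with a stem-loop the model ended at most 52 bases past it. Their reads can come from either form where both are made.

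The promoters of 4 genes are shown because HIST1H2AG, HIST1H2AE and HIST1H4I had some of the largest differences between shCXCR7 and LKO cells, and HIST2H2BE differed in the opposite direction. Each is the 300-base window around the transcription start in RefSeq (GRCh38.p14), on the strand of the gene. Capitals mark 3 words, searched on both strands so that the reverse complement is marked too, which are the TATA box word TATAAA, the CAAT box word CCAAT and the octamer ATTTGCAT, known as a site of POU2F1 in H2B promoters.
HIST1H2AG (chr6:27132793-27133092, + strand): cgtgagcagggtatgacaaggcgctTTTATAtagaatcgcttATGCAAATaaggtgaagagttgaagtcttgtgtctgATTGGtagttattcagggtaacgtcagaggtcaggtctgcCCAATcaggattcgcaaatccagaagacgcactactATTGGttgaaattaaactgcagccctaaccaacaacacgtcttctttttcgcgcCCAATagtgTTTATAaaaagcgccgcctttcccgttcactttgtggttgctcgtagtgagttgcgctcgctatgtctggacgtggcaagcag
HIST1H2AE (chr6:26216671-26216970, + strand): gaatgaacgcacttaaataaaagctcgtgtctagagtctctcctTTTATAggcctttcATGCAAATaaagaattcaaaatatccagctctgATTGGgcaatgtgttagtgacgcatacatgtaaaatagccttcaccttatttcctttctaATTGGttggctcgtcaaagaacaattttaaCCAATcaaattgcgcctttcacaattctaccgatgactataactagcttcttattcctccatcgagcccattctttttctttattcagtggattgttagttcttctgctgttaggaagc
HIST1H4I (chr6:27139032-27139331, + strand): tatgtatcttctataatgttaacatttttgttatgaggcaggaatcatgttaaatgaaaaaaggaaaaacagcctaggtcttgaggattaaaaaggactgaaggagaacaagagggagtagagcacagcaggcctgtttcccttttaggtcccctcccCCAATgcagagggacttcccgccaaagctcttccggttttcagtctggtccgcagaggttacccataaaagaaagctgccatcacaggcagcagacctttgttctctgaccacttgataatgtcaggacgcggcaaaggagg
HIST2H2BE (chr1:149886633-149886932, - strand): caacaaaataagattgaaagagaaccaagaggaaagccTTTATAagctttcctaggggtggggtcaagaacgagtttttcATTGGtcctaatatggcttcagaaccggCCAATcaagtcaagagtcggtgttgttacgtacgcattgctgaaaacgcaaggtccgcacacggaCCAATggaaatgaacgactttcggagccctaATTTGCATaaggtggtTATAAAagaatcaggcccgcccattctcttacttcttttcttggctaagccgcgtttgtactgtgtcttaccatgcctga

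A RefSeq promoter was matched for 43 of 47 members. TATAAA stood in 67.4% of them, against 11.95% of all 27305 RefSeq promoters of the same length. CCAAT stood in 86.0%, against 35.7% of all promoters. It was present in every H1, H2A, H2B and H3 promoter matched and in 14.3% of the 7 H4 promoters. The octamer stood in 41.9%, against 1.8% of all promoters, and was found in 72.7% of H2A promoters, 69.2% of H2B promoters and none of those of H1 and H4. A match is a description of the letters and not evidence of a bound factor. The H2A and H2B genes often lie head to head, and 8 such pairs had both genes among the members, with starts 194 to 248 bases apart, so that a pair such as HIST1H2AG and HIST1H2BJ shares 1 promoter region.

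The libraries held between 6382010 and 9834306 reads in genes, and the 47 members between 3436 and 6509 reads, as recovered from the steps of the RPKM values. Many members were low, with 18 to 27 of them under 10 reads in each of 11 libraries. The remaining library, LNCaP-EnzR shCXCR7 replicate 3, had 1 such member and stood apart. It had 35667712 reads in its denominator, against 9528739 to 14080781 in the other 11 libraries, and 27.4% of them in genes, against 67.0% to 75.5%. Genes silent elsewhere had a median of 0.53 RPKM in it after rescaling and 0 in every other library, and 32 of the 47 members had their highest value of the 6 LNCaP-EnzR libraries there. Counts of members and of lists in LNCaP-EnzR are therefore also given without it, as are the calls it decides. Values were divided by median-of-ratios factors within each line, and tests used limma on log2(RPKM + 0.25), so a fold change is on that scale and understates changes of low genes. ACKR3 stood at 22.3, 23.8 and 19.1 rescaled RPKM in C4-2B-EnzR shCXCR7 libraries, against 84.1, 86.2 and 85.3 in LKO, and at 55.6, 50.3 and 42.8 in LNCaP-EnzR shCXCR7 libraries, against 121.7, 116.4 and 110.4 in LKO. It was lower in all knockdown libraries of both lines (exact permutation test in each line, 2-sided p = 0.1, below which 3 libraries against 3 cannot go). The summed level of 9 luminal prostate markers, which include KLK3, was 448.4 to 482.8 rescaled RPKM in C4-2B-EnzR shCXCR7 and 590.4 to 605.3 in LKO, and 380.1 to 442.2 in LNCaP-EnzR shCXCR7 and 444.1 to 470.6 in LKO. None of the 9 was at 0, while the sums of 6 fibroblast and 5 blood markers were at most 11.96 and 5.29 in any library.

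Reads could be shared between near-identical copies. HIST2H4A and HIST2H4B, HIST2H3A and HIST2H3C, and HIST2H2AA3 and HIST2H2AA4 shared every 50-base word with their copy, and these 6 rows were listed at 0 in all 12 libraries. Among the members, 12 shared at least 10% of their 50-base words with another histone gene, so their values are uncertain. HIST1H4J led with 88.1%, then HIST1H2AI with 64.2% and HIST2H2BE with 40.6%. Words were counted over the whole span between coding ends, introns included, which lowers the share of genes with long spans. HIST2H2BE shared 36.1% of its words with HIST2H2BF, whose own share read 0.8%. HIST1H2BL shared 10.3% with HIST1H2BN, whose own share read 0.9%. The values of HIST2H2BF and HIST1H2BN are therefore uncertain too. By this count HIST1H2AG, HIST1H2AE, HIST1H2BF, HIST1H2BJ, HIST1H4I, HIST1H1C and HIST3H2A shared under 3% each. HIST1H4I also lies within the RefSeq span of HIST1H2BK on the opposite strand, HIST1H4C and HIST1H1T lie within that of HIST1H2BC, and HIST1H3J and HIST1H2AM overlap on 1 strand. The counting models of HIST1H2BC and HIST1H3J, 438 and 478 bases, were far shorter than these spans, so overlapping spans need not mean overlapping models. Whether counting used strand is not stated, so reads of genes whose models do overlap cannot be told apart.

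The summed level of the members came from few genes in every group. HIST1H2BK and HIST1H2AC, which code for H2B and H2A, HIST1H1C, which codes for a linker histone of somatic cells, and HIST3H2A, HIST2H2BE, HIST1H2BD and HIST1H2BC were among the highest per length. At the other end, 13 members in C4-2B-EnzR shCXCR7, 17 in C4-2B-EnzR LKO, 8 in LNCaP-EnzR shCXCR7 and 22 in LNCaP-EnzR LKO averaged under 1 rescaled RPKM. The 6 members known to make a polyadenylated form (HIST1H1C, HIST1H2AC, HIST1H2BC, HIST1H2BD, HIST1H2BK and HIST2H2BE) held 64.1 ± 1.29% of the summed level in C4-2B-EnzR shCXCR7 and 67.3 ± 1.38% in LKO, and 56.8 ± 4.56% in LNCaP-EnzR shCXCR7 and 63.6 ± 0.301% in LKO (SD, n = 3 each). These few genes therefore made up more than all other members together in every group. The lowest share, 51.7%, was that of LNCaP-EnzR shCXCR7 replicate 3.

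**Figure D1:**
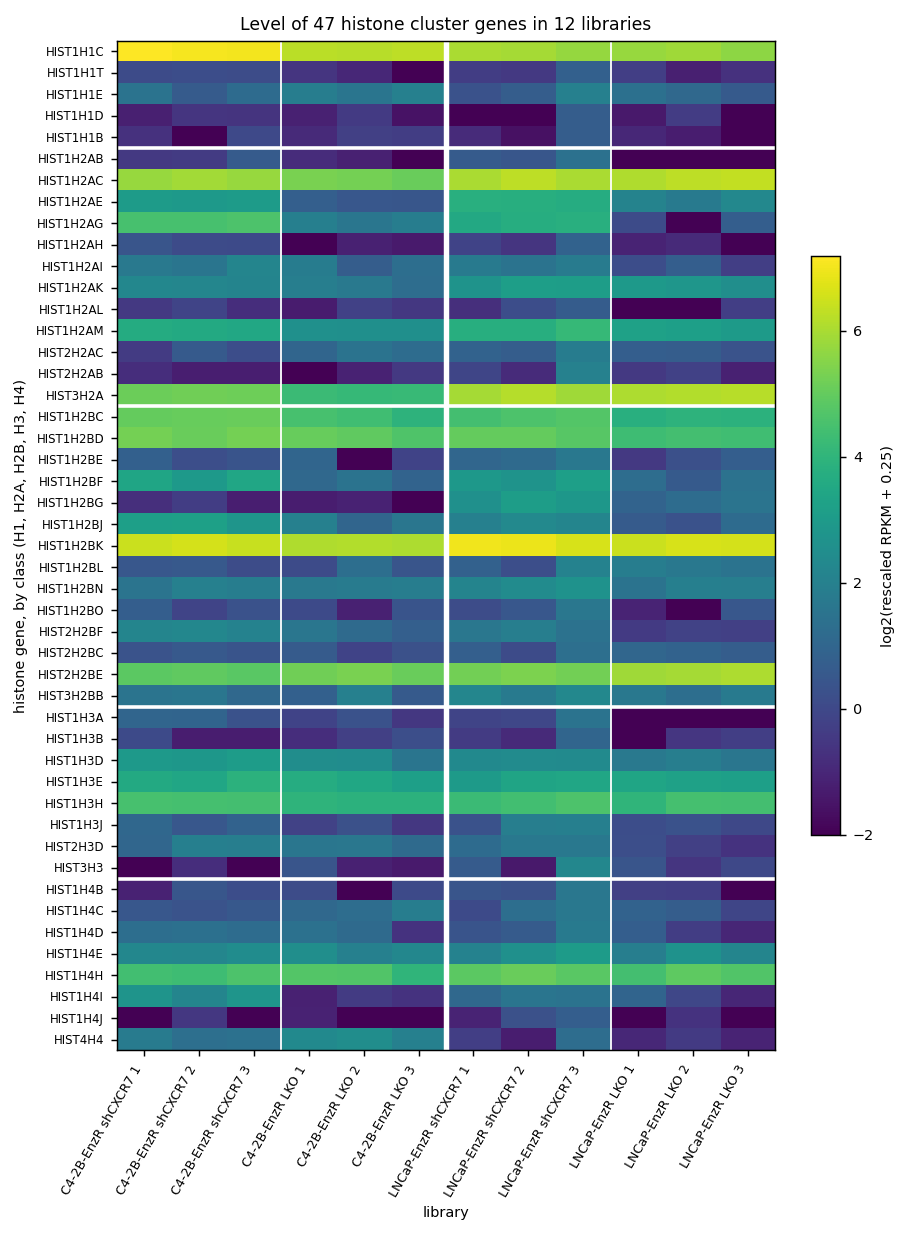
Heat map of log2(rescaled RPKM + 0.25) for the 47 histone genes (rows, grouped by class and separated by white lines) in the 12 libraries (columns, shCXCR7 left of LKO within each line). A few rows such as HIST1H2BK and HIST1H1C are bright throughout, and many low rows are brighter in LNCaP-EnzR shCXCR7 replicate 3 than in the other LNCaP-EnzR libraries.

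In bulk libraries, a different share of cells in S phase and a different amount of histone mRNA per cell cannot be told apart. The summed level of all members was 656.0, 649.3 and 640.7 rescaled RPKM in C4-2B-EnzR shCXCR7 libraries, against 459.7, 444.7 and 403.5 in LKO. In LNCaP-EnzR it was 515.7, 555.5 and 535.5 in shCXCR7 libraries, against 431.8, 473.0 and 463.3 in LKO. All shCXCR7 sums lay above all LKO sums of their line, with a ratio of means of 1.49 in C4-2B-EnzR and 1.17 in LNCaP-EnzR (also 1.17 without shCXCR7 replicate 3). Of the difference of 212.7 RPKM between the mean sums in C4-2B-EnzR, HIST1H1C alone gave 65.9, HIST1H2BK 22.8, HIST1H2AG 21.7, HIST1H2AC 20.2 and HIST3H2A 19.0. In LNCaP-EnzR the difference was 79.5 RPKM, to which HIST1H2BK gave 18.2 and HIST1H2AG 10.8, while HIST2H2BE was lower by 21.4.

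The classes contributed unequally. In C4-2B-EnzR the ratio of mean sums, shCXCR7 over LKO, was 1.75 for H1, 1.95 for H2A, 1.29 for H2B, 1.37 for H3 and 1.05 for H4. In LNCaP-EnzR it was 1.12 for H1, 1.14 for H2A, 1.17 for H2B, 1.28 for H3 and 1.34 for H4. The sums of the 2 groups overlapped for H4 in C4-2B-EnzR and for H1, H3 and H4 in LNCaP-EnzR. Without LNCaP-EnzR shCXCR7 replicate 3 the ratios in that line were 1.15 for H1, 1.14 for H2A, 1.20 for H2B, 1.14 for H3 and 1.27 for H4, and the H3 and H4 sums still overlapped. By cluster, HIST1 had a ratio of 1.56, HIST3 of 1.83 and HIST2 of 0.866 in C4-2B-EnzR, and HIST1 had 1.30, HIST3 0.955 and HIST2 0.741 in LNCaP-EnzR (1.30, 0.971 and 0.722 without shCXCR7 replicate 3). The mean HIST2 sum was lower in shCXCR7 cells of both lines, with overlapping groups in C4-2B-EnzR, and 1 gene, HIST2H2BE, made up 75.6% to 93.2% of it.

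**Figure D2:**
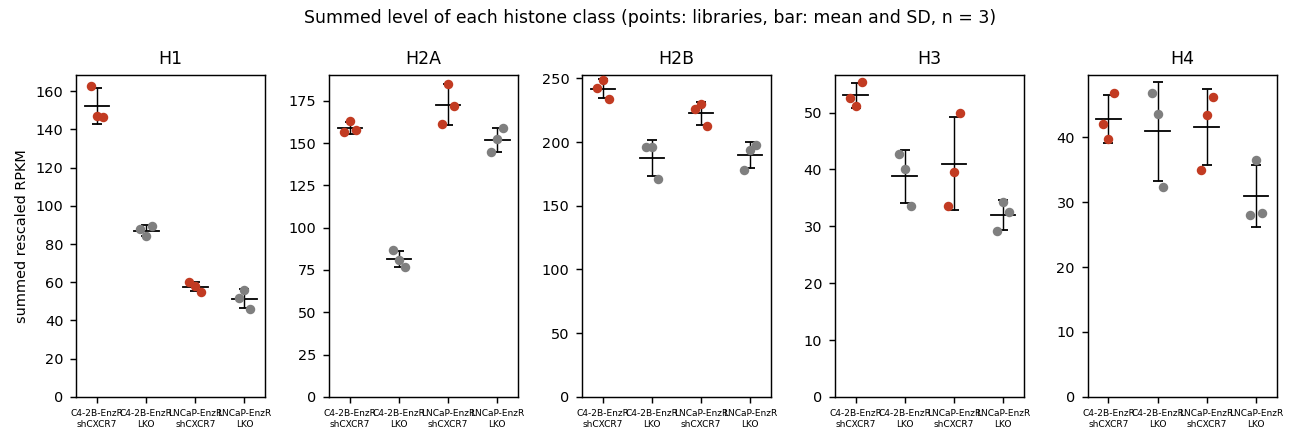
Summed rescaled RPKM of each histone class in the 4 groups (points are libraries, red shCXCR7 and grey LKO, bars are the mean and SD of 3). H2A in C4-2B-EnzR sits at 156.3 to 162.9 in shCXCR7 libraries and 77.0 to 86.6 in LKO, whereas the H4 sums of the 2 groups overlap in that line.

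CXCR7 knockdown in C4-2B-EnzR cells went with higher levels of many histone genes. Of 42 members that reached 0.5 RPKM in at least 3 of the 6 libraries of the line, 21 were higher and 5 lower at a limma adjusted p under 0.05. The 21 were 50% of the members tested, against 21.6% of the 13354 genes tested that were higher, and the 5 were 11.9%, against 20.9% of all genes that were lower. The median log2 fold change was 0.55 over the members and 0.005 over all genes. The count of higher members was 13 of 38, 14 of 39 and 14 of 38 without C4-2B-EnzR shCXCR7 replicate 1, 2 and 3. It was 22 of 42, 19 of 40 and 18 of 40 without LKO replicate 1, 2 and 3. Of all genes, 1928 of 13106, 1964 of 13098 and 2273 of 13092 were higher without shCXCR7 replicate 1, 2 and 3. Without LKO replicate 1, 2 and 3 they were 2964 of 13159, 2217 of 13206 and 2859 of 13209. HIST1H2AB, HIST1H1T and HIST1H2AH were tested only through their shCXCR7 libraries, so the filter fixed the direction of their calls, which are among the 21. HIST1H1D, HIST1H4J, HIST2H2AB, HIST3H3 and HIST1H2BG were too low to be tested. These counts therefore describe the members that passed and not all 47.

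Knockdown in LNCaP-EnzR cells gave a similar count of higher members and 1 decrease. Here 43 members were tested and 20 were higher (46.5%, against 20.3% of 13169 genes), and 1, HIST2H2BE, was lower (2.33%, against 20.8%). The median log2 fold change was 0.70 over the members and 0.025 over all genes. Without shCXCR7 replicate 3, 37 members were tested, 16 were higher and 2 lower, and the median was 0.50. Of all 12835 genes tested in that setting, 2889 were higher and 3068 lower, with a median of -0.003. Of the 21 calls, 15 were also made without that library. HIST1H1B, HIST1H1D, HIST1H2AH and HIST1H4J were not tested in this line. HIST1H3A and HIST1H2AB were tested only through their shCXCR7 libraries, so the filter fixed the direction of their calls, which are among the 20.

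In both lines 13 members were called higher and 1 lower. Of all genes tested, 21.6% were higher in C4-2B-EnzR and 20.3% in LNCaP-EnzR. How many of all genes were called the same way in both lines was not counted. The shared calls are therefore a list and not a result about these genes. The 13 were the H2A genes HIST1H2AB, HIST1H2AE, HIST1H2AG and HIST1H2AM, the H2B genes HIST1H2BC, HIST1H2BD, HIST1H2BF, HIST1H2BJ and HIST2H2BF, the H3 genes HIST1H3A, HIST1H3D and HIST1H3J, and the H4 gene HIST1H4I. No linker histone gene was among them. HIST1H2AB was tested only through its shCXCR7 libraries in both lines, and HIST1H3A in LNCaP-EnzR. The filter fixed the direction of those calls, so they add nothing to the count in both lines. Without LNCaP-EnzR shCXCR7 replicate 3, HIST1H2AB, HIST1H3A, HIST1H3J and HIST1H4I dropped out, and HIST1H1C, a linker histone gene, and HIST1H2BK joined. The 2 comparisons share no library.

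**Figure D3:**
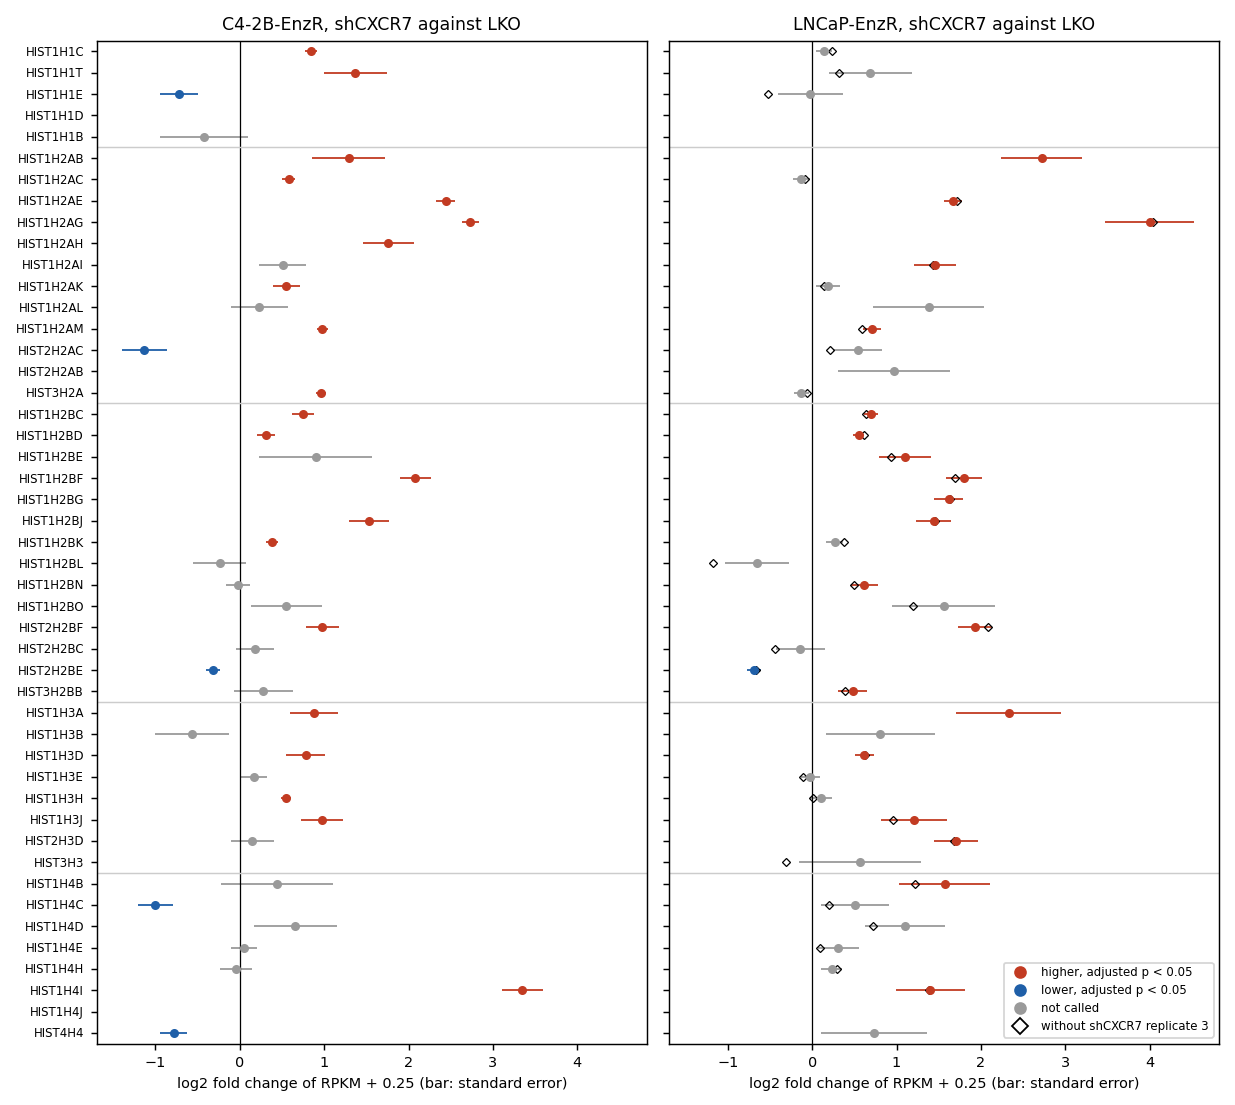
Log2 fold change (RPKM + 0.25, shCXCR7 over LKO) of each histone gene in C4-2B-EnzR (left) and LNCaP-EnzR (right), with bars for the standard error, red for higher, blue for lower and grey for not called. Open diamonds give LNCaP-EnzR without shCXCR7 replicate 3, and rows with no point were not tested. HIST1H2AG, HIST1H2AE, HIST1H2BF and HIST1H2BJ lie above 1 in both panels, and HIST2H2BE lies under 0 in both.

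Of the H2A genes, 8 of 11 tested were higher and 1 lower in C4-2B-EnzR, and 5 of 11 were higher in LNCaP-EnzR (median log2 fold change 0.96 and 0.97). Without LNCaP-EnzR shCXCR7 replicate 3, 4 of 8 were higher, with a median of 0.40. With all libraries the C4-2B-EnzR shares were 72.7% higher and 9.09% lower, against 21.6% and 20.9% of all genes. The higher share in LNCaP-EnzR was 45.5%, against 20.3%. These shares count HIST1H2AB in both lines and HIST1H2AH in C4-2B-EnzR, though the filter fixed the direction of those calls. HIST1H2AG had the largest fitted change of this class in both lines. It stood at 24.96, 24.5 and 26.6 rescaled RPKM in C4-2B-EnzR shCXCR7 libraries, against 3.98, 3.10 and 3.80 in LKO, with a log2 fold change of 2.73 ± 0.10 (SE, limma adjusted p = 6.87e-06). In LNCaP-EnzR it stood at 10.3, 11.9 and 12.4 in shCXCR7 libraries, against 0.758, 0 and 1.30 in LKO, where the zero was 1 library with no read. The change there was 4.00 ± 0.53 (limma adjusted p = 0.000261), and 4.04 without shCXCR7 replicate 3 (adjusted p = 0.00301). The groups lay far apart in both lines. HIST1H2AE stood at 8.64, 8.24 and 8.78 rescaled RPKM in C4-2B-EnzR shCXCR7 libraries, against 1.61, 1.28 and 1.26 in LKO (2.44 ± 0.11, limma adjusted p = 1.39e-05). In LNCaP-EnzR it stood at 12.4, 11.99 and 11.4 in shCXCR7 libraries, against 3.68, 2.95 and 4.17 in LKO (1.67 ± 0.11, limma adjusted p = 4.47e-06). All shCXCR7 libraries of HIST1H2AE lay above all LKO libraries of both lines.

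HIST1H2AC was the most abundant H2A gene and behaved differently in the 2 lines. It stood at 59.8, 65.5 and 58.4 rescaled RPKM in C4-2B-EnzR shCXCR7 libraries, against 43.9, 41.8 and 37.4 in LKO (0.58 ± 0.08, limma adjusted p = 0.00118). In LNCaP-EnzR it stood at 58.4, 70.5 and 57.8, against 61.7, 69.1 and 72.9 in LKO, and the groups overlapped (-0.13 ± 0.10, limma adjusted p = 0.334). HIST3H2A, an H2A gene of the small HIST3 cluster, was likewise higher in C4-2B-EnzR alone. It stood at 38.0, 40.3 and 38.6 rescaled RPKM in C4-2B-EnzR shCXCR7 libraries, against 20.6, 19.5 and 19.7 in LKO (0.96 ± 0.06, limma adjusted p = 3.89e-05), and at 55.6, 64.7 and 52.8 in LNCaP-EnzR shCXCR7 libraries, against 60.1, 62.6 and 66.0 in LKO (-0.13 ± 0.09, limma adjusted p = 0.277).

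The other H2A genes were lower in level. HIST1H2AB stood at 1.19, 1.03 and 2.18 rescaled RPKM in LNCaP-EnzR shCXCR7 libraries, with 8, 8 and 18 reads, and had no read in any LKO library. Against a floor of 3 reads over the 3 LKO libraries it was at least 9.14-fold higher, and at least 6.91-fold higher without shCXCR7 replicate 3, without which it was not tested. In C4-2B-EnzR it stood at 0.511, 0.551 and 1.41, against 0.346, 0.216 and 0 in LKO (1.29 ± 0.43, limma adjusted p = 0.0415), and the call was lost without LKO replicate 2 or 3 (adjusted p = 0.0745 and 0.0895). HIST1H2AH was tested in C4-2B-EnzR alone, at 1.18, 0.911 and 0.872 in shCXCR7 libraries and 0, 0.214 and 0.164 in LKO (1.76 ± 0.30, limma adjusted p = 0.00248). These 2 genes had few reads in every library. In C4-2B-EnzR both entered the test only through their shCXCR7 libraries, so the filter fixed the direction of their calls. HIST2H2AC was the 1 H2A gene that fell, to 0.558, 1.40 and 0.960 in C4-2B-EnzR shCXCR7 libraries, against 1.89, 2.82 and 2.35 in LKO (-1.13 ± 0.27, limma adjusted p = 0.0108). In LNCaP-EnzR it was at 1.46, 1.27 and 3.04, against 1.30, 1.27 and 0.928 (0.54 ± 0.29, limma adjusted p = 0.161), and its highest value was that of replicate 3. HIST1H2AM was higher in both lines (0.98 and 0.71), HIST1H2AK in C4-2B-EnzR (0.55) and HIST1H2AI in LNCaP-EnzR (1.46). HIST1H2AL and HIST2H2AB were called in neither.

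Of the H2B genes, 6 of 13 tested were higher and 1 lower in C4-2B-EnzR, and 9 of 14 were higher and 1 lower in LNCaP-EnzR (median log2 fold change 0.38 and 0.66, and 9 higher, 2 lower and 0.63 in LNCaP-EnzR without shCXCR7 replicate 3). With all libraries the C4-2B-EnzR shares were 46.2% higher and 7.69% lower, against 21.6% and 20.9% of all genes. The LNCaP-EnzR shares were 64.3% and 7.14%, against 20.3% and 20.8%. HIST1H2BF stood at 11.2, 8.36 and 11.5 rescaled RPKM in C4-2B-EnzR shCXCR7 libraries, against 2.11, 2.87 and 1.83 in LKO (2.08 ± 0.18, limma adjusted p = 0.00011). In LNCaP-EnzR it stood at 6.43, 5.72 and 8.06, against 1.98, 1.15 and 2.26 in LKO (1.80 ± 0.21, limma adjusted p = 0.000121). HIST1H2BJ, the head-to-head partner of HIST1H2AG, stood at 9.63, 10.0 and 7.33 in C4-2B-EnzR shCXCR7 libraries, against 4.12, 1.92 and 3.12 in LKO (1.53 ± 0.24, limma adjusted p = 0.00188). In both genes every shCXCR7 library lay above every LKO library of its line. In LNCaP-EnzR HIST1H2BJ stood at 3.39, 4.35 and 3.85, against 1.18, 0.896 and 1.85 in LKO (1.44 ± 0.21, limma adjusted p = 0.000494). HIST2H2BF stood at 4.64, 5.01 and 4.33 in C4-2B-EnzR shCXCR7 libraries, against 3.10, 2.22 and 1.63 in LKO (0.98 ± 0.20, limma adjusted p = 0.00551), and at 2.59, 3.23 and 2.28 in LNCaP-EnzR shCXCR7 libraries, against 0.442, 0.577 and 0.532 in LKO (1.93 ± 0.20, limma adjusted p = 6.56e-05). In each line every shCXCR7 library of HIST2H2BF lay above every LKO library.

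HIST2H2BE, whose model included the long polyadenylated form, went the other way in both lines. It fell to 31.9, 33.6 and 31.1 rescaled RPKM in C4-2B-EnzR shCXCR7 libraries, against 39.8, 44.3 and 36.9 in LKO (-0.32 ± 0.08, limma adjusted p = 0.0154). In LNCaP-EnzR it fell to 33.7, 37.4 and 33.6, against 52.6, 56.2 and 60.04 in LKO (-0.69 ± 0.08, limma adjusted p = 9.73e-05). HIST1H2BK, the most abundant H2B gene, stood at 96.2, 106.7 and 91.8 in C4-2B-EnzR shCXCR7 libraries, against 75.3, 77.1 and 74.1 in LKO (0.38 ± 0.07, limma adjusted p = 0.00468). It was thus higher where HIST2H2BE was lower, though the models of both genes ran past the stem-loop. In LNCaP-EnzR HIST1H2BK was at 113.5, 108.2 and 88.9, against 79.6, 89.8 and 86.4 (0.27 ± 0.10, limma adjusted p = 0.0568), and it was called higher without shCXCR7 replicate 3 (0.38, adjusted p = 0.00218). HIST1H2BC (0.75 and 0.70) and HIST1H2BD (0.31 and 0.55) were higher in both lines. HIST1H2BG was tested in LNCaP-EnzR alone, where it stood at 5.27, 7.62 and 6.38, against 1.49, 1.94 and 2.37 in LKO (1.62 ± 0.17, limma adjusted p = 6.59e-05). HIST1H2BE, HIST1H2BN and HIST3H2BB were called higher in LNCaP-EnzR, HIST3H2BB not without replicate 3 (adjusted p = 0.116). HIST1H2BL, HIST1H2BO and HIST2H2BC were called in neither line, but HIST1H2BL was lower in LNCaP-EnzR without replicate 3 (-1.17, limma adjusted p = 0.00346).

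Of the H3 genes, 4 of 7 tested were higher in C4-2B-EnzR and 4 of 8 in LNCaP-EnzR, and none was lower by limma or voom, or at an unadjusted p under 0.05 (0 in each line; median log2 fold change 0.55 and 0.72). The higher share in C4-2B-EnzR was 57.1%, against 21.6% of all genes, of which 20.9% were lower. In LNCaP-EnzR 20.3% of all genes were higher and 20.8% lower. Without LNCaP-EnzR shCXCR7 replicate 3, 2889 of 12835 genes were higher. In that setting 2 of 6 H3 genes were higher, with a median of 0.32. HIST1H3H, the most abundant, stood at 24.9, 24.1 and 23.4 rescaled RPKM in C4-2B-EnzR shCXCR7 libraries, against 16.9, 16.1 and 16.3 in LKO (0.55 ± 0.06, limma adjusted p = 0.000507). In LNCaP-EnzR it was at 17.1, 19.0 and 21.8, against 14.4, 20.2 and 19.7 in LKO (0.10 ± 0.13, limma adjusted p = 0.588), and the groups overlapped. HIST2H3D stood at 1.86, 2.69 and 2.66 in LNCaP-EnzR shCXCR7 libraries, against 0.826, 0.539 and 0.355 in LKO (1.71 ± 0.26, limma adjusted p = 0.000622). In C4-2B-EnzR HIST2H3D was at 1.96, 4.03 and 3.86, against 3.07, 3.15 and 2.24 in LKO (0.15 ± 0.26, limma adjusted p = 0.66). The call was thus made in 1 line. HIST1H3A had no read in any LNCaP-EnzR LKO library and stood at 0.605, 0.656 and 2.34 in shCXCR7 libraries, with 4, 5 and 19 reads. It was at least 7.35-fold higher against the floor of 3 reads over the group, and at least 3.86-fold higher without replicate 3, without which it was not tested. In C4-2B-EnzR it stood at 1.91, 1.87 and 1.07, against 0.704, 1.10 and 0.505 (0.88 ± 0.28, limma adjusted p = 0.0335), and leaving out LKO replicate 1, LKO replicate 3, shCXCR7 replicate 1 or shCXCR7 replicate 2 ended the call (adjusted p between 0.0654 and 0.112). HIST1H3D (0.78 and 0.62) and HIST1H3J (0.97 and 1.21) were higher in both lines, HIST1H3J not without LNCaP-EnzR shCXCR7 replicate 3 (adjusted p = 0.1). HIST1H3B, HIST1H3E and HIST3H3, a testis H3 gene, were called in neither.

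Of the H4 genes, 1 of 7 tested was higher and 2 lower in C4-2B-EnzR (14.3% and 28.6%, near the 21.6% and 20.9% of all genes), and 2 of 7 were higher in LNCaP-EnzR (28.6%, against 20.3%; median log2 fold change 0.05 and 0.73). Without LNCaP-EnzR shCXCR7 replicate 3 none of 6 was called, with a median of 0.50. HIST1H4I stood at 7.03, 4.74 and 7.26 rescaled RPKM in C4-2B-EnzR shCXCR7 libraries, against 0.223, 0.556 and 0.426 in LKO, with 32, 20 and 32 reads against 1, 2 and 2. Its log2 fold change of 3.35 ± 0.24 was the largest of any member in this line (limma adjusted p = 5.21e-05). In LNCaP-EnzR it stood at 1.72, 2.49 and 2.34, against 1.53, 0.666 and 0.219 in LKO (1.40 ± 0.41, limma adjusted p = 0.0215), and the call was lost without shCXCR7 replicate 2 or 3 (adjusted p = 0.0808 and 0.0582). The groups did not overlap in either line. HIST1H4C fell to 1.25, 1.12 and 1.29 in C4-2B-EnzR shCXCR7 libraries, against 2.12, 2.37 and 3.84 in LKO (-1.0 ± 0.21, limma adjusted p = 0.00626), and HIST4H4 to 3.55, 2.55 and 2.65, against 5.41, 5.99 and 4.21 (-0.78 ± 0.16, limma adjusted p = 0.00653). HIST4H4 was not called in 1 fit of all 12 libraries (-0.77, limma adjusted p = 0.219). In LNCaP-EnzR neither was called. HIST1H4H, the most abundant H4 gene, was at 22.6, 22.04 and 26.7 in C4-2B-EnzR shCXCR7 libraries, against 29.1, 28.3 and 17.5 in LKO, with overlapping groups (-0.04 ± 0.19, limma adjusted p = 0.881), and its LNCaP-EnzR change was 0.23 (limma adjusted p = 0.135). HIST1H4B was called higher in LNCaP-EnzR, though not without replicate 3 (adjusted p = 0.0996). HIST1H4D and HIST1H4E were called in neither line.

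Of the linker histone genes, 4 were tested in C4-2B-EnzR, where 2 were higher and 1 lower, and 3 in LNCaP-EnzR, where none was called with all 6 libraries, by limma or voom, nor at an unadjusted p under 0.05 (0 genes; median log2 fold change 0.21 and 0.14). Among all genes tested, 21.6% were higher and 20.9% lower in C4-2B-EnzR, and 20.3% and 20.8% in LNCaP-EnzR. HIST1H1C stood at 158.6, 144.0 and 142.3 rescaled RPKM in C4-2B-EnzR shCXCR7 libraries, against 83.0, 79.7 and 84.5 in LKO (0.84 ± 0.07, limma adjusted p = 8.94e-05). In LNCaP-EnzR it was at 58.4, 56.0 and 47.9, against 48.9, 53.3 and 44.5 in LKO, with overlapping groups (0.14 ± 0.10, limma adjusted p = 0.268), and it was called higher without replicate 3 (0.23, adjusted p = 0.0426). HIST1H1C was the highest member by level in C4-2B-EnzR. HIST1H1T, which codes for the testis linker histone, stood at 0.896, 0.967 and 0.926 in C4-2B-EnzR shCXCR7 libraries, against 0.456, 0.284 and 0 in LKO (1.37 ± 0.37, limma adjusted p = 0.0196). It entered the test only through its shCXCR7 libraries, and the call was lost with a pseudocount of 0.05 (limma adjusted p = 0.0539). HIST1H1E was lower in C4-2B-EnzR (-0.72 ± 0.22, limma adjusted p = 0.0296), and HIST1H1B was not called.

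**Figure D4:**
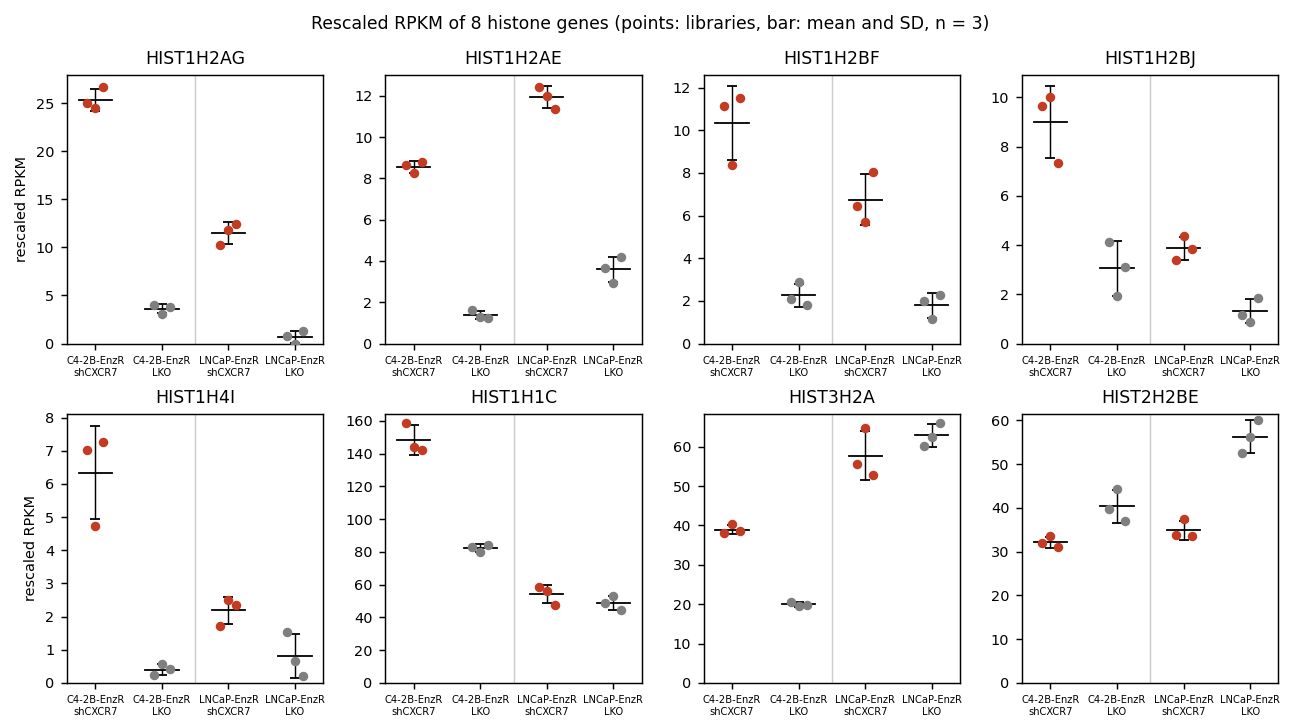
Rescaled RPKM of 8 histone genes in each library (points, red shCXCR7 and grey LKO), with the mean and SD of 3. HIST1H2AG, HIST1H2AE, HIST1H2BF, HIST1H2BJ and HIST1H4I are higher in shCXCR7 cells of both lines, HIST1H1C and HIST3H2A separate in C4-2B-EnzR and overlap in LNCaP-EnzR, and HIST2H2BE is lower in both lines.

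The difference between the responses of the lines was tested as an interaction over all 12 libraries, in which 47 members were tested. The response was called higher in C4-2B-EnzR for 6 members (12.8%, against 6.41% of 14204 genes) and lower for 3 (6.38%, against 6.32%). HIST3H2A had the clearest difference, 1.09 ± 0.10 log2 units (limma adjusted p = 0.000168). HIST1H2AC and HIST1H1C differed by 0.71 each (limma adjusted p = 0.00522 and 0.00345), and both were among the most abundant members. HIST2H2AC (-1.66 ± 0.43), HIST2H3D (-1.58 ± 0.39) and HIST2H2BF (-0.99 ± 0.27), all of HIST2, had the lower response in C4-2B-EnzR. These 3 calls were lost with voom (adjusted p = 0.086, 0.0675 and 0.0966) and, with limma, without LNCaP-EnzR LKO replicate 3 (adjusted p = 0.0666, 0.0509 and 0.062). Of the 13 members called higher in both lines, HIST1H2AE, HIST1H4I and HIST2H2BF were called in this test, so for the others no difference in size was detected.

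Before knockdown the lines already differed in many of these genes. Between LKO libraries, with all 12 libraries rescaled together, 11 of 47 members were higher in C4-2B-EnzR (23.4%, against 31.5% of 14204 genes) and 10 lower (21.3%, against 29.6%), both shares under those of all genes. HIST4H4 stood at 4.91, 5.43 and 3.79 rescaled RPKM in C4-2B-EnzR LKO libraries, against 0.252, 0.492 and 0.216 in LNCaP-EnzR LKO (3.14 ± 0.47 log2 units, limma adjusted p = 7.89e-05). HIST1H2BG stood at 0.169, 0.210 and 0 in C4-2B-EnzR, against 1.63, 2.13 and 2.61 in LNCaP-EnzR (-2.68 ± 0.28, limma adjusted p = 4.42e-06). HIST3H2A stood at 18.8, 17.7 and 17.7 in C4-2B-EnzR, against 66.0, 68.6 and 72.5 in LNCaP-EnzR (-1.92 ± 0.07, limma adjusted p = 6.28e-10). HIST3H2A was thus lower in C4-2B-EnzR LKO cells and higher in that line after knockdown, yet stayed under its LNCaP-EnzR level. HIST1H2AG stood at 3.61, 2.81 and 3.42 in C4-2B-EnzR, against 0.833, 0 and 1.43 in LNCaP-EnzR (2.19 ± 0.48, limma adjusted p = 0.00164), and HIST2H3D at 2.79, 2.85 and 2.02, against 0.907, 0.591 and 0.390 (1.70 ± 0.27, limma adjusted p = 0.00015). HIST1H3A was at 0.640, 0.993 and 0.454 in C4-2B-EnzR and had no read in LNCaP-EnzR LKO libraries. The line, its drug dose and any batch between the lines cannot be told apart here.

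Head-to-head partners did not always share a call. Of the 8 pairs with both genes among the members, both genes were higher in 2 pairs in C4-2B-EnzR and in 2 in LNCaP-EnzR, and 1 gene of the pair was higher in 4 and 5 pairs. Without LNCaP-EnzR shCXCR7 replicate 3 the LNCaP-EnzR counts were 2 and 4 pairs. Of all genes tested singly, 21.6% were higher in C4-2B-EnzR and 20.3% in LNCaP-EnzR, and pairs of other genes were not counted. HIST1H2AG and HIST1H2BJ were higher together in both lines. In LNCaP-EnzR HIST1H2AE and HIST1H2BG were also both higher (1.67 and 1.62), whereas in C4-2B-EnzR HIST1H2AE was higher (2.44) and HIST1H2BG stayed at most 0.592 RPKM in any library. HIST2H2AC and HIST2H2BE, the pair on chromosome 1, were both lower in C4-2B-EnzR.

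The promoter words were set beside the calls as a description. Among members with the octamer, 11 of 16 tested were higher and 2 lower in C4-2B-EnzR (median log2 fold change 0.84), and among those without it 8 of 22 were higher and 2 lower (0.30). In LNCaP-EnzR 11 of 18 with the octamer were higher and 1 lower (1.24), against 8 of 22 and none lower without it (0.56). Without shCXCR7 replicate 3 the LNCaP-EnzR counts were 11 of 15 higher with it (0.94) and 5 of 19 without it (0.29), with 1 lower in each. Most octamer promoters belong to H2A and H2B genes, and partners share them, so these members are not independent. The octamer counts include HIST1H2AB, the direction of whose calls the filter fixed. For TATAAA the counts of higher members in C4-2B-EnzR were 11 of 24 with it and 8 of 14 without it. In LNCaP-EnzR they were 13 of 27 and 6 of 13. Of all genes tested, 21.6% were higher in C4-2B-EnzR and 20.3% in LNCaP-EnzR (2889 of 12835 without shCXCR7 replicate 3). HIST1H4I, with the largest change in C4-2B-EnzR, has no octamer in its window.

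The genes that make and process histone mRNA did not follow the histone genes. Of 25 genes for histone gene transcription and 3′ end processing, none was higher by limma or voom and 14 were lower by limma in C4-2B-EnzR (0 and 15 at an unadjusted p under 0.05, median log2 fold change -0.29), and 4 were higher and 9 lower in LNCaP-EnzR (-0.16; 3 and 11 without shCXCR7 replicate 3). The lower share was 56.0% in C4-2B-EnzR, against 20.9% of all genes, and 36.0% in LNCaP-EnzR, against 20.8%. SLBP stood at 23.1, 25.7 and 20.04 rescaled RPKM in C4-2B-EnzR shCXCR7 libraries, against 20.6, 24.6 and 29.1 in LKO (-0.10 ± 0.14, limma adjusted p = 0.589), and its change in LNCaP-EnzR was -0.11 (limma adjusted p = 0.202). NPAT, the activator of the clusters, was lower in C4-2B-EnzR (-0.27, limma adjusted p = 0.0398) and not called in LNCaP-EnzR (0.20, limma adjusted p = 0.11). CASP8AP2, which is needed for histone gene transcription, was called in neither (-0.31 and 0.11). The upstream regulators CCNE2 (-1.61 and -1.26), CCNE1 (-0.64 and -1.06) and CDK2 (-1.45 and -0.97) fell in both lines, and the S phase activator E2F1 fell in C4-2B-EnzR (-0.86, limma adjusted p = 0.00122, and -0.27, adjusted p = 0.11, in LNCaP-EnzR).

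The chaperone genes called in C4-2B-EnzR were nearly all lower. Of 20 histone chaperone and assembly genes, 1 was higher and 12 lower in C4-2B-EnzR (median -0.30), and 4 were higher and 5 lower in LNCaP-EnzR (0.10), where 9 were higher without shCXCR7 replicate 3. The lower share was 60% in C4-2B-EnzR, against 20.9% of all genes. In LNCaP-EnzR with all 6 libraries the shares of 20% higher and 25% lower were close to those of all genes, 20.3% and 20.8%. Without shCXCR7 replicate 3, 9 of the 20 were higher and 5 lower, against 2889 and 3068 of 12835 genes. The higher share was then above that of all genes. HJURP, the chaperone of the centromeric H3 variant CENPA, fell in both lines (-1.78 and -0.37), while CHAF1A, a subunit of the assembly factor that works at replication forks, fell in C4-2B-EnzR (-0.79) and rose in LNCaP-EnzR (0.45). Of 13 replacement variant genes, which are made outside S phase as well, 10 were tested in C4-2B-EnzR with 2 higher and 3 lower, and 9 in LNCaP-EnzR with 2 higher and 2 lower (3 of each without shCXCR7 replicate 3). These shares, 20% and 30.0% in C4-2B-EnzR and 22.2% and 22.2% in LNCaP-EnzR, were not far from those of all genes. The variant linker histone H1F0 fell in both lines (-0.74 and -0.85), opposite to HIST1H1C in C4-2B-EnzR. H2AFX fell in C4-2B-EnzR (-0.60) and rose in LNCaP-EnzR (0.42).

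Genes that mark S phase were mostly lower in C4-2B-EnzR shCXCR7 cells. Of the published S phase set shipped with Seurat, 42 of 43 were in the table, and in C4-2B-EnzR 35 of 42 tested were lower by limma and none higher by limma or voom (38 and 0 at an unadjusted p under 0.05, median log2 fold change -0.86). The lower share was 83.3%, against 20.9% of all genes. In LNCaP-EnzR 10 of 41 were lower and 3 higher (-0.05), and 12 and 5 without shCXCR7 replicate 3. The lower share there, 24.4%, was near the 20.8% of all genes. RRM2, a subunit of the enzyme that makes deoxyribonucleotides, stood at 3.22, 3.73 and 2.71 rescaled RPKM in C4-2B-EnzR shCXCR7 libraries, against 10.8, 16.8 and 22.4 in LKO (-2.24 ± 0.24, limma adjusted p = 0.00032). TYMS, which makes thymidylate, fell in both lines (-2.08 and -0.93). The decrease of the set was larger in C4-2B-EnzR, with 24 of 42 genes called lower in the interaction by limma and none higher by limma or voom (34 and 0 at an unadjusted p under 0.05). Of the 9 luminal markers, 6 were lower in C4-2B-EnzR and 5 in LNCaP-EnzR, among them KLK2 (-1.53 and -2.12), KLK3 (-1.77 and -1.78) and TMPRSS2 (-1.78 and -1.10). The part of any such change in the histone values was not tested.

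**Figure D5:**
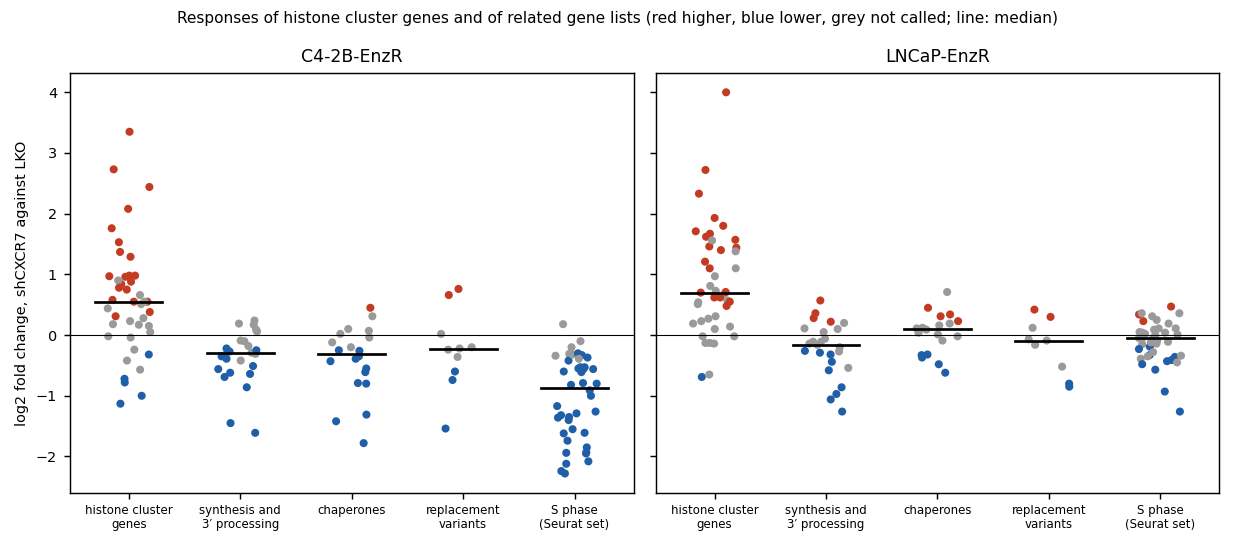
Log2 fold change (shCXCR7 over LKO) of each tested gene of the histone clusters and of 4 related lists in C4-2B-EnzR (left) and LNCaP-EnzR (right), with red for higher, blue for lower, grey for not called and a line at the median. In C4-2B-EnzR the median is 0.55 for the histone cluster genes and -0.86 for the S phase set, and in LNCaP-EnzR 0.70 and -0.05.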

How the data were processed

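RNA was sequenced single-end on an Illumina HiSeq 4000 after library preparation with a NEBNext Ultra kit. The authors aligned reads with STAR to hg38, per the submitters' processing notes, and deposited RPKM values made with an in-house Perl script. The sources used here do not give the annotation or the strand setting. The test named in the methods needs counts, so limma on log2(RPKM + 0.25) was used in its place. The table had 26475 lines, of which 32 held no value and 2 symbols were repeated, leaving 26441 genes. Values were divided by median-of-ratios factors, within each line for the knockdown comparisons and over all 12 libraries for the line comparison and the interaction. A gene entered a test at 0.5 RPKM in at least 3 libraries of its fit, with a variance trend and p-values adjusted by Benjamini-Hochberg over all genes tested. Reads were recovered from the RPKM steps and came within 0.02 of whole numbers for 25030 of 25030 genes. Replicates of a group differed by more than counting error (chi-square per degree of freedom 1.63 to 19.88), so none was a repeated library. These reads served for depth, for the transcript length behind each value and for voom as an alternative.

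Members and lists (histone mRNA synthesis and 3′ processing, chaperones, replacement variants, the S phase set, members with a polyadenylated form, luminal, fibroblast and blood markers) were chosen with earlier results of these data known. In each line the rule named up to 8 members with the largest called change, the member with the highest mean of each class and, where a class had no call, the member with the smallest p. It added up to 8 called interactions, up to 6 called line differences, SLBP, NPAT, CASP8AP2, E2F1, ACKR3 and up to 3 genes of each list. Other members are named to account for all of them. Of 6 fibroblast markers 1 was tested and not called in either line, and no blood marker was tested. Of 9 luminal markers 3 were higher and 6 lower in C4-2B-EnzR, and 2 higher and 5 lower in LNCaP-EnzR (3 and 5 without shCXCR7 replicate 3). Of the 6 members with a polyadenylated form, 5 were higher and 1 lower in C4-2B-EnzR, and 2 higher and 1 lower in LNCaP-EnzR (4 and 1 without shCXCR7 replicate 3). Alternatives covered scaling, pseudocount, filter, variance trend, replicate block, threshold, background, voom, 1 fit of all libraries and leaving out each library. Stem-loops came from the GRCh38 genome, gene positions from GENCODE 44 and RefSeq, and promoters from RefSeq. Software was R 4.3.3, limma 3.58.1, Python 3.11.15, matplotlib 3.10.9, scipy 1.17.1, pandas 2.3.3 and numpy 2.4.6, and the fitting code was tested on simulated data.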

Additional observations from a re-analysis of the deposited data

Results flagged for a closer look

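For 9 histone genes the response to CXCR7 knockdown differed between the lines at a limma adjusted p under 0.05 in the interaction over 12 libraries (C4-2B-EnzR response minus LNCaP-EnzR response, log2 scale). HIST3H2A differed by 1.09 ± 0.10 (SE, limma adjusted p = 0.000168), HIST1H1C by 0.71 ± 0.12 (adjusted p = 0.00345), HIST1H2AC by 0.71 ± 0.13 (adjusted p = 0.00522) and HIST1H2AE by 0.75 ± 0.17 (adjusted p = 0.0138). HIST1H4I differed by 1.87 ± 0.55 (limma adjusted p = 0.0435) and HIST2H2BE by 0.37 ± 0.11 (adjusted p = 0.0445), and neither was called without LNCaP-EnzR shCXCR7 replicate 3 (adjusted p = 0.0673 and 0.0786). Of the 3 with a negative difference, HIST2H2AC had -1.66 ± 0.43 (limma adjusted p = 0.026), HIST2H3D -1.58 ± 0.39 (adjusted p = 0.0199) and HIST2H2BF -0.99 ± 0.27 (adjusted p = 0.0322). None of these 3 was called with voom (adjusted p = 0.086, 0.0675 and 0.0966), nor by limma without LNCaP-EnzR LKO replicate 3 (adjusted p = 0.0666, 0.0509 and 0.062).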

How the results depend on the processing

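No call of a named member was reversed into a call of the other direction under any alternative. Over named members 652 values kept their side of the threshold, 36 lost and 10 gained the call. Values that were not called could change sign. With values as deposited, HIST1H1C in LNCaP-EnzR stood at 68.8, 67.8 and 23.2 RPKM in shCXCR7 libraries, against 54.3, 61.5 and 50.3 in LKO. On the log2 scale its mean was then lower in shCXCR7, and higher after rescaling. With values as deposited, the counts of members were 13 higher and 0 lower in LNCaP-EnzR, 5 lower between the lines and 0 in the interaction (limma; 1 lower in LNCaP-EnzR and 9 in the interaction at an unadjusted p under 0.05). There the median of all genes moved to -0.307 in LNCaP-EnzR and 0.33 in the interaction, and higher genes made up 38.9% of calls in LNCaP-EnzR (49.4% after rescaling), 37.7% in the interaction (50.4%) and 63.8% between the lines (51.5%). HIST1H2AE lost its LNCaP-EnzR call there (limma adjusted p = 0.0662). Requiring 2-fold and adjusted p under 0.001 left 4 higher and 0 lower members in C4-2B-EnzR, 7 and 0 in LNCaP-EnzR, 3 and 5 between the lines and 1 in the interaction. In 1 fit of 12 libraries 2 members were lower in C4-2B-EnzR, and HIST4H4 was not called (-0.77, adjusted p = 0.219). The interaction had 5 members with no filter, where the median of all genes was 0.349 in LNCaP-EnzR and -0.311 in the interaction, and 4 with voom, all of them higher. Leaving out 1 library gave 13 to 22 higher and 3 to 4 lower members in C4-2B-EnzR, 16 to 20 and 1 to 2 in LNCaP-EnzR, 9 to 13 and 8 to 11 between the lines, and 5 to 9 in the interaction. The interaction count of 5 came without LNCaP-EnzR LKO replicate 3 or C4-2B-EnzR shCXCR7 replicate 1. Same-numbered libraries did not deviate together (r between -0.11 and 0.06 across genes), so the replicate numbers were not taken as pairs, and a replicate block gave 19 higher and 5 lower members in C4-2B-EnzR, 21 and 1 in LNCaP-EnzR and 8 in the interaction. Low depth limits most members under 1 RPKM.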

Other observations

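The genes that lie between the HIST1 histone genes on chromosome 6 (25723397 to 27893891 on GRCh38) were read as a comparison chosen after the data were seen. Of 29 such genes in the table, 17 were tested in C4-2B-EnzR, where 2 were higher and 3 lower in shCXCR7 cells (11.8% and 17.6%, against 21.6% and 20.9% of all genes, median log2 fold change 0.09). In LNCaP-EnzR 18 were tested, with 8 higher and 3 lower (0.28). The higher share there was 44.4%, against 20.3% of all genes and 46.5% of the histone members, and the lower share 16.7%, against 20.8%. BTN3A3, a butyrophilin gene, was higher in both lines (0.89 and 1.10, limma adjusted p = 0.00747 and 4.93e-05), as was PRSS16 (0.38 and 0.75). HMGN4, which codes for a nucleosome-binding protein, was lower in both (-0.41 and -0.87), as were HFE (-1.37 and -0.55) and BTN2A1 (-0.83 and -0.63).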
